A study of Mus musculus with 10 samples.

Results

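The nuclear genes for the subunits of mitochondrial complexes I to V were followed in 3 groups of sorted mouse cells. The members were all probe sets of the array that pair with a single gene symbol beginning with Ndufa, Ndufb, Ndufc, Ndufs, Ndufv, Sdha to Sdhd, Uqcr, Cox4 to Cox8 or Atp5, without the assembly factors Ndufaf and Sdhaf. This rule used names alone and gave 169 of 45037 probe sets, which stand for 82 of 18193 gene symbols. They comprise 36 genes of complex I, 4 of complex II, 8 of complex III, 17 of complex IV and 17 of complex V. The rule follows symbols, so it placed Ndufa4 and its paralogue Ndufa4l2 with complex I, although the NDUFA4 protein is now counted with complex IV, and it placed Cox7a2l, which joins complexes III and IV, with complex IV.

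The study compared gene expression in androgenetic haploid embryonic stem cells, diploid embryonic stem cells and fibroblasts, with 10 Affymetrix GeneChip 430 2.0 arrays. AG-haESC (n = 5) are haploid lines derived from androgenetic blastocysts, whose genome comes from the father alone, on a C57BL/6J background at passages 12 to 15. Replicates 1, 2, 4 and 5 carried an Oct4-EGFP transgene and replicate 3 an Actin-EGFP transgene, and the lines were grown on feeder cells with the inhibitors CHIR99021 and PD0325901. E14 (n = 3) is a wild-type diploid male embryonic stem cell line of 129/Sv genotype at passage 17, and its 3 arrays are all of that line. MEF (n = 2) are wild-type embryonic fibroblasts of B6D2F1 genotype at passage 2, each isolated from a male embryo at d13.5. Cells were sorted by DNA content after Hoechst 33342 staining (15 µg/ml), taking the 1n peak of AG-haESC and the 2n peak of E14 and MEF. AG-haESC and E14 differed in ploidy, parental origin of the genome, strain, transgene and passage at once, and these cannot be told apart. For E14 and MEF the culture medium was not stated in the labels used.

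Oxidative phosphorylation couples electron transport to ATP synthesis in the inner mitochondrial membrane. Complex I takes electrons from NADH and complex II from succinate, complex III passes them on to cytochrome c, complex IV reduces oxygen, and complex V makes ATP from the proton gradient. Most subunits are encoded in the nucleus, and several subunits of complex IV exist as paralogous isoforms that are used in muscle, lung or testis. Pluripotent stem cells are known for relying strongly on glycolysis while keeping a functional respiratory chain.

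The promoters of 7 members, picked as examples, are shown here from RefSeq on the build GRCm38.p6. They run from 250 bases before to 50 bases after the start of the gene, 5′ to 3′ along the gene. A promoter was on hand for 65 of the 80 genes measured. The first 4 promoters each hold a match to the motif of nuclear respiratory factor 1, a known activator of respiratory chain genes. It was searched in its exact form of 10 bases and in a loose form that leaves 1 base in the middle free, and every exact match is also a loose match. The loose form was found for 14 of the 65 members with a promoter, so these 4 do not stand for the rest. Those of Ndufa1, Uqcr10 and Cox7c, not shown, held none of the motifs searched. The estrogen-related receptor motif, searched as TCAAGGTCA, was found in 2 of these promoters, both times on the other strand. Capitals mark the matches.
Atp5k, chr5:108434350-108434649, minus strand: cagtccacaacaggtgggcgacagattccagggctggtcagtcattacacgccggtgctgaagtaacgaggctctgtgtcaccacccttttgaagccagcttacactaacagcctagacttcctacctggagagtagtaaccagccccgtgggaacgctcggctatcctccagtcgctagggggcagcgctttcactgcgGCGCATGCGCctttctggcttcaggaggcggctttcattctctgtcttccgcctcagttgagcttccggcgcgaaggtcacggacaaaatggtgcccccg
Sdhd, chr9:50603800-50604099, minus strand: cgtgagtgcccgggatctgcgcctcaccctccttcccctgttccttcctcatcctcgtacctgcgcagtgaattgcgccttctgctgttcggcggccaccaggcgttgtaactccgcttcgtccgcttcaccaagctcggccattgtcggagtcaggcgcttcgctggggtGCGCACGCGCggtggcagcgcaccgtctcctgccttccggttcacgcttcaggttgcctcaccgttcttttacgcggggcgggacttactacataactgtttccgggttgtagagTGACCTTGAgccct
Atp5g3, chr2:73911277-73911576, minus strand: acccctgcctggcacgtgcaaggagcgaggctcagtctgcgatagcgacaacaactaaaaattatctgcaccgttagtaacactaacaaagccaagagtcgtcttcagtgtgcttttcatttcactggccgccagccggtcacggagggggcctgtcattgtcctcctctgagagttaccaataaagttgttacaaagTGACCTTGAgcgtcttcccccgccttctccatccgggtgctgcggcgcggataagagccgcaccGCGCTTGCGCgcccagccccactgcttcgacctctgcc
Ndufs5, chr4:123718137-123718436, minus strand: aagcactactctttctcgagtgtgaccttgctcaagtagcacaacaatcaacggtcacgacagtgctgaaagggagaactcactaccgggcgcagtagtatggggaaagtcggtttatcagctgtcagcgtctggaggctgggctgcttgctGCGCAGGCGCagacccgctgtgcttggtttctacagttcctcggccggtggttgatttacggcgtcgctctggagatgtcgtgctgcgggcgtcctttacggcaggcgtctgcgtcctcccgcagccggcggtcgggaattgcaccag
The next 3 promoters belong to complex IV isoforms, the widely expressed Cox7a2 and the restricted Cox7a1 and Cox7b2, and hold none of the motifs searched.
Cox7a1, chr7:30183921-30184220, plus strand: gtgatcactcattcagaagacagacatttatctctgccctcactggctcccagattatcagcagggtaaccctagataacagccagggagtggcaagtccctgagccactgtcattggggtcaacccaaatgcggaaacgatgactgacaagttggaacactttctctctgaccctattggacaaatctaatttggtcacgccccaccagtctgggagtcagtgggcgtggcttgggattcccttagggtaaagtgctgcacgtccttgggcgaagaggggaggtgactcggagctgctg
Cox7a2, chr9:79759804-79760103, minus strand: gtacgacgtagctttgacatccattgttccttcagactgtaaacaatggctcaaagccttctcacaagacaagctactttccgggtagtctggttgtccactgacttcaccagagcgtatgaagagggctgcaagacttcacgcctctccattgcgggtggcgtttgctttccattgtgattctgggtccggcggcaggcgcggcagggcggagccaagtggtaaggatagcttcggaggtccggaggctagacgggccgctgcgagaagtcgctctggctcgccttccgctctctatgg
Cox7b2, chr5:71548156-71548455, minus strand: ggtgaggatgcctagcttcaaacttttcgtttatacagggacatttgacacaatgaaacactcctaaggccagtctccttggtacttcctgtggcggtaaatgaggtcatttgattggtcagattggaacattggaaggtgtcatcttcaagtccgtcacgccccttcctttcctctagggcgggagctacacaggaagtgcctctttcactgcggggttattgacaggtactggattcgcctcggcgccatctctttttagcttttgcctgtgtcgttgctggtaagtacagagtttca

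Motifs were searched on both strands. Genes were counted, and a gene with several promoters counted once when any of them held a match. The exact motif of nuclear respiratory factor 1 was found for 4 of the 65 members with a promoter (6.15%). It was found for 2.22% of the 10652 genes tested on these arrays that had a promoter and 1.07% of all 27025 genes with one. The loose form was found for 14 members (21.5%), against 10.9% and 5.19%. The estrogen-related receptor motif was found in 2 (3.08%), against 0.347% and 0.466%, and the YY1 motif AAGATGGCG in 6 (9.23%), against 3.31% and 1.64%. The motif CCGGAAGT of the GABP factor was found in 5 (7.69%), against 8.31% and 4.31%. Of the promoters shown, that of Cox7a1 held 7 CpG, that of Cox7b2 held 10, that of Cox7a2 held 20 and the first 4 held 19 to 29. These matches describe letters in a window of 300 bases and were not tested further.

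Values are log2 of the signal, and a gene was read by its brightest probe set among those above the median of their own array in at least 2 arrays. Of the 82 member genes, 80 met this condition. The exceptions were Ndufb4 and the muscle isoform Cox8b, whose only probe sets of their own lay below the median in all 10 arrays. Of the 80 genes, 75 lay above the array median in every array (93.75%), which held for 67.6% of all 13251 genes tested. Cox6a2, Cox7a1 and Cox7b2 did so in 8 arrays, Ndufa4l2 in 4 and Cox4i2 in 3. The signals of different probe sets cannot be set against each other as amounts of RNA. In each array the values are relative to all others, so fewer cells of a type and less RNA per cell cannot be told apart.

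The labelled cell types matched their markers. The summed signal of 10 pluripotency genes was 108400 to 120700 in the embryonic stem cell arrays and 7326 to 7405 in MEF, where 8 of the 10, among them Pou5f1 and Nanog, lay below the array median. The summed signal of 13 fibroblast genes was 135200 to 160200 in MEF, 2454 to 8296 in AG-haESC and 1275 to 1930 in E14. MEF also held macrophage markers, with a summed signal of 6172 to 6462 over 10 genes, against 525 to 724 in the other arrays, and the part of such cells in the differences from MEF was not tested. E14 replicate 3 stood apart from the other E14 arrays, with correlations of 0.922 and 0.924 over the 13251 genes, while those arrays correlated at 0.968. Where leaving it out changed the call of a member's difference given here, the result without it is given too.

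**Figure D1:**
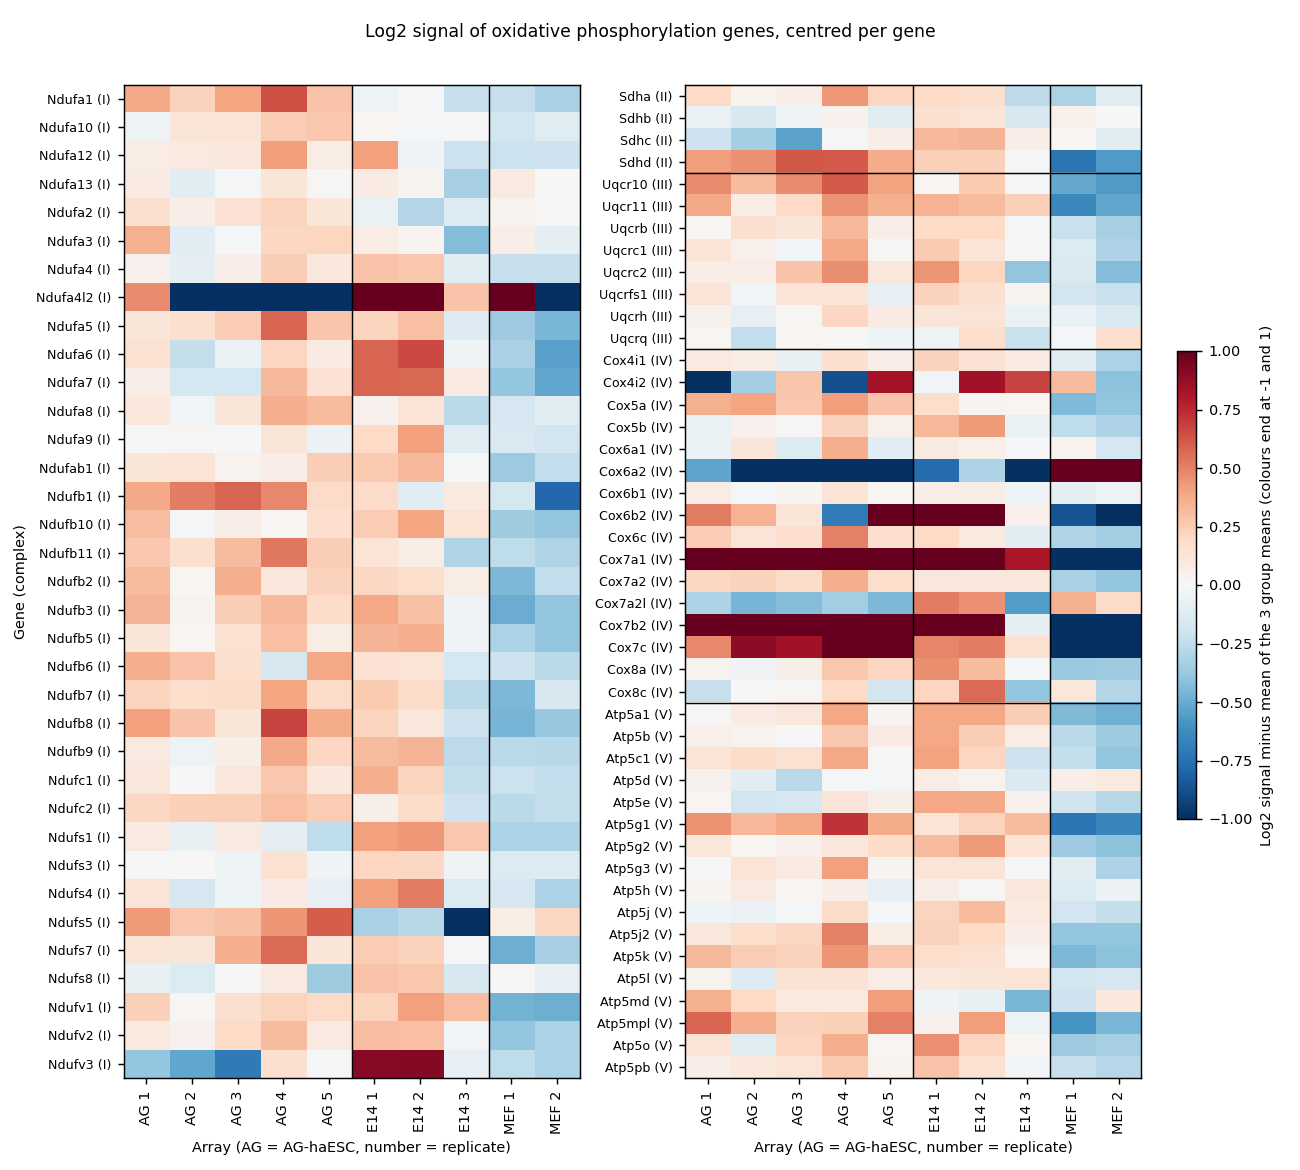
Log2 signal of the 80 measured genes (rows, with their complex) in the 10 arrays (columns), minus the mean of the 3 group means of each gene. Red is higher and blue is lower, with colours ending at a difference of 1. MEF columns are mostly blue, 71 genes have a higher E14 mean than MEF mean, and Cox6a2 runs the other way.

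Most members had a higher signal in both kinds of embryonic stem cell than in MEF. For AG-haESC against MEF, 49 of the 80 genes rose and 2 fell (adjusted p below 0.05 over all genes, limma), while 30.2% of all genes tested rose and 29.6% fell. For E14 against MEF, 44 rose and 2 fell, while 30.4% of all genes rose and 26.9% fell. The shift was small for most genes: the median difference over the members was 0.41 for AG-haESC and 0.42 for E14, against 0.0045 and 0.080 over all genes. Among these calls, differences of at least 2-fold were made up of 6 higher and 1 lower for AG-haESC (19.7% and 22.5% of all genes) and 4 higher and 1 lower for E14 (20.9% and 21.3%). The arrays of the groups did not overlap for 63 higher and 3 lower members in AG-haESC (34.6% and 35.7% of all genes) and for 58 higher and 3 lower members in E14 (38.2% and 35.7%). Both comparisons use the same 2 MEF arrays, and whether these came from separate embryos was not stated in the labels used.

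The number of members that rose depended on how the arrays were scaled. With quantile normalization, 31 members (38.8%) rose in AG-haESC against MEF and 31 in E14, while 32.3% and 32.2% of all genes rose with it, and 5 and 3 members fell. The median over the members was then 0.24 and 0.23, against 0.085 and 0.13 over all genes. With the arrays centred on the median of the genes tested, 67 and 65 rose, while 37.8% and 37.3% of all genes rose with it. That centring moved the median of all genes to 0.28 and 0.32, and the members' median to 0.68 and 0.66. The share of higher genes among all called genes moved with it, from 50.5% to 61.5% for AG-haESC against MEF and from 53.1% to 62.3% for E14. Relative to the median of all genes, the members lay 0.40 and 0.34 higher in the deposited scaling and 0.15 and 0.10 higher after quantile normalization. Centring shifts all genes of an array alike, so it cannot change this distance. Without MEF replicate 2, 29 members rose in each comparison, while 23.7% of all genes rose in AG-haESC and 23.6% in E14. In every fit that left out 1 array, 27 members rose for AG-haESC against MEF and 27 for E14 against MEF. The share of all genes that rose in every such fit was not computed, so these 2 counts cannot be set against it.

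**Figure D2:**
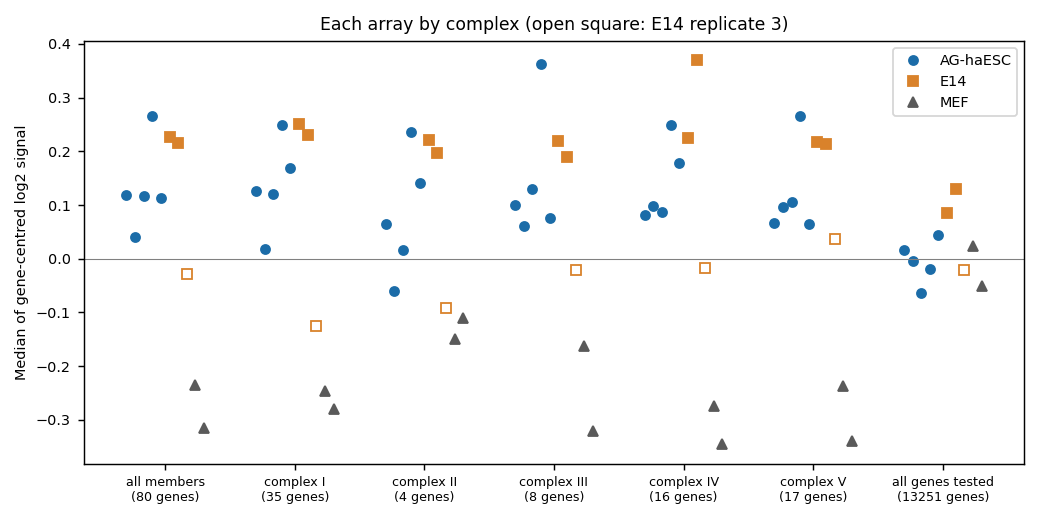
Median over the members of the gene-centred log2 signal (vertical axis) in each array, for all members, for each complex and for all genes tested. The MEF arrays are lowest for all members, at -0.24 and -0.32, while the other arrays lie between -0.028 and 0.27. The open square is E14 replicate 3, the lowest of the embryonic stem cell arrays for all members.

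Complex I, which oxidises NADH, followed this pattern. Of its 35 genes measured, 21 rose and 0 fell in AG-haESC against MEF, with a median difference of 0.42, and 16 rose and 1 fell in E14, with a median of 0.40. Among the 6 measured core subunits encoded in the nucleus, most of which carry the flavin or iron-sulfur clusters, 3 rose in AG-haESC and 4 in E14. Ndufv1, the NADH-binding flavoprotein, rose by 0.65 ± 0.10 (SE) in AG-haESC (adjusted p = 0.000241) and by 0.80 ± 0.11 in E14 (adjusted p = 0.000108). Its other probe sets, of similar brightness, did not pass in AG-haESC, with 0.25 and 0.32 (limma, adjusted p = 0.125 and 0.0656). In E14 they passed, with 0.55 and 0.58 (adjusted p = 0.00757 and 0.0061). Of the 27 accessory subunits, 18 rose in AG-haESC, while 11 rose and 1 fell in E14.

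Ndufb8, an accessory subunit of the membrane arm that is often used as a marker of assembled complex I, rose by 0.79 ± 0.15 in AG-haESC (adjusted p = 0.000815) and by 0.47 ± 0.17 in E14 (adjusted p = 0.0306). Its dim second probe set went the other way, so the mean of both gave -0.21 (adjusted p = 0.59) and -1.32 (adjusted p = 0.00647), and quantile normalization ended the E14 call (adjusted p = 0.0784), as did leaving out E14 replicate 1 or 2 or either MEF array (adjusted p from 0.0761 to 0.145). Ndufa7, another accessory subunit, had signals of 13.77, 13.53, 13.53, 14.03 and 13.85 in AG-haESC, 14.29, 14.28 and 13.79 in E14, and 13.32 and 13.19 in MEF. Both MEF arrays lay below all others, and the gene rose by 0.49 ± 0.16 in AG-haESC (adjusted p = 0.0231) and by 0.87 ± 0.18 in E14 (adjusted p = 0.00157). The first of these calls was lost after quantile normalization (0.28, adjusted p = 0.123) and without MEF replicate 1 or 2 (adjusted p = 0.0666 and 0.149).

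Complex II, succinate dehydrogenase, did not move as a unit. Sdhd, a membrane anchor subunit, had signals of 12.53, 12.57, 12.73, 12.72 and 12.48 in AG-haESC, 12.35, 12.35 and 12.09 in E14, and 11.38 and 11.54 in MEF. The 3 groups did not overlap, and Sdhd rose by 1.15 ± 0.12 in AG-haESC (adjusted p = 9.83e-06) and by 0.80 ± 0.13 in E14 (adjusted p = 0.000319) against MEF. Sdha, the flavoprotein that oxidises succinate, rose by 0.41 ± 0.15 in AG-haESC (adjusted p = 0.0357), and its difference in E14 was 0.24 ± 0.16 (adjusted p = 0.224), or 0.39 without E14 replicate 3 (adjusted p = 0.0349). The Sdha call in AG-haESC was lost after quantile normalization (adjusted p = 0.113), without MEF replicate 1 or 2 (adjusted p = 0.249 and 0.0645) and with AG-haESC replicate 1, 4 or 5 left out (adjusted p from 0.0554 to 0.0581). Another Sdha probe set lay above the median in all 10 arrays. It gave 0.041 in AG-haESC (limma, adjusted p = 0.884) and 0.38 in E14 (adjusted p = 0.186). A dim one gave 1.08 and -0.57 (adjusted p = 0.0589 and 0.35). Sdhb, the iron-sulfur subunit, had signals of 12.79, 12.70, 12.82, 12.90 and 12.75 in AG-haESC, 13.02, 12.99 and 12.70 in E14, and 12.91 and 12.86 in MEF. These overlapped, with differences from MEF of -0.094 ± 0.11 in AG-haESC (adjusted p = 0.482) and 0.016 ± 0.12 in E14 (adjusted p = 0.918). After quantile normalization Sdhb passed the test as lower in AG-haESC (-0.26, adjusted p = 0.0448). Sdhc, the other anchor subunit, did not pass the test in either comparison, with differences of -0.16 ± 0.17 and 0.29 ± 0.19.

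In complex III, which passes electrons from ubiquinol to cytochrome c, 5 of 8 genes rose in AG-haESC and 4 in E14 against MEF. The 2 largest differences were those of small subunits. Uqcr10 had signals of 13.03, 12.88, 13.03, 13.17 and 12.96 in AG-haESC, 12.58, 12.82 and 12.55 in E14, and 12.05 and 11.99 in MEF. Uqcr11 had 13.14, 12.84, 12.96, 13.21 and 13.12 in AG-haESC, 13.11, 13.08 and 13.00 in E14, and 12.12 and 12.24 in MEF. MEF was lowest for both, by 0.99 ± 0.11 (adjusted p = 1.73e-05) and 0.88 ± 0.12 (adjusted p = 5.28e-05) against AG-haESC and by 0.63 ± 0.12 (adjusted p = 0.0011) and 0.89 ± 0.13 (adjusted p = 0.000108) against E14. Other probe sets of Uqcr10 gave 0.35 and 0.79 in AG-haESC against MEF (limma, adjusted p = 0.288 and 0.00281). In E14 against MEF these gave 0.64 and 0.81 (adjusted p = 0.0814 and 0.0045). Uqcrb, which helps to bind ubiquinone, had signals of 14.93, 15.07, 15.03, 15.24 and 14.98 in AG-haESC, 15.11, 15.11 and 14.89 in E14, and 14.69 and 14.58 in MEF, and rose in both comparisons by 0.42 ± 0.10 (adjusted p = 0.0034) and 0.40 ± 0.11 (adjusted p = 0.00762). The core subunit Uqcrc1 rose in AG-haESC by 0.34 ± 0.13 (adjusted p = 0.0412) and had a difference of 0.35 ± 0.14 in E14 (adjusted p = 0.054), or 0.42 without E14 replicate 3 (adjusted p = 0.027). The Rieske iron-sulfur protein Uqcrfs1 rose in E14 by 0.34 ± 0.12 (adjusted p = 0.0257) and had a difference of 0.26 ± 0.11 in AG-haESC (adjusted p = 0.0565), which passed in the fit without E14 replicate 3 (adjusted p = 0.0379). Quantile normalization ended the calls of Uqcrc1 (adjusted p = 0.198), of Uqcrfs1 (adjusted p = 0.0813) and of Uqcrb in E14 (0.10, adjusted p = 0.235). Without MEF replicate 2 these calls were lost too (adjusted p = 0.266, 0.127 and 0.0691), and several other arrays decided those of Uqcrc1 and Uqcrfs1.

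Complex V, the ATP synthase, held 11 of 17 genes that rose in AG-haESC and 13 that rose in E14 against MEF, and none that fell. The c subunit of its rotor is made from Atp5g1, Atp5g2 and Atp5g3, which encode the same mature protein. Atp5g1 had signals of 13.37, 13.25, 13.31, 13.64 and 13.29 in AG-haESC, 13.06, 13.14 and 13.24 in E14, and 12.20 and 12.27 in MEF, which lay below all other arrays. It rose by 1.14 ± 0.12 in AG-haESC (adjusted p = 7.88e-06) and by 0.91 ± 0.13 in E14 (adjusted p = 9.57e-05). Atp5g2 rose by 0.49 ± 0.10 (adjusted p = 0.00115) and 0.68 ± 0.11 (adjusted p = 0.000223). Atp5g3 had signals of 14.40, 14.54, 14.48, 14.81 and 14.43 in AG-haESC, 14.54, 14.53 and 14.38 in E14, and 14.29 and 14.09 in MEF, and rose by 0.34 ± 0.11 in AG-haESC (adjusted p = 0.0221), with 0.30 ± 0.12 in E14 (adjusted p = 0.061), or 0.35 without E14 replicate 3 (adjusted p = 0.0437). The Atp5g3 call in AG-haESC was lost after quantile normalization (0.11, adjusted p = 0.176) and without MEF replicate 2 (adjusted p = 0.219), and both Atp5g2 calls were lost with the mean of its probe sets (0.20 and 0.59, adjusted p = 0.552 and 0.106).

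Of the catalytic head of complex V and its central stalk, Atp5a1, Atp5b and Atp5c1 rose in both comparisons, Atp5e rose in E14, and Atp5d passed the test in neither. Atp5a1, its alpha subunit, rose by 0.58 ± 0.11 in AG-haESC (adjusted p = 0.00075) and by 0.80 ± 0.12 in E14 (adjusted p = 0.00016). Atp5b, the catalytic beta subunit, rose by 0.40 ± 0.10 (adjusted p = 0.00573) and 0.55 ± 0.11 (adjusted p = 0.00157). Its call in AG-haESC was lost after quantile normalization (0.16, adjusted p = 0.0863) and without MEF replicate 2 (adjusted p = 0.0627). Atp5c1, the gamma subunit of the stalk, rose by 0.48 (adjusted p = 0.0136) and 0.45 (adjusted p = 0.0321), and both calls were lost after quantile normalization (0.24 and 0.19, adjusted p = 0.0999 and 0.246) and without MEF replicate 2 (adjusted p = 0.117 and 0.176). Its call in E14 was also lost without MEF replicate 1, without E14 replicate 1 or 2, without the trend and in the fit of those groups alone (adjusted p from 0.067 to 0.11). Atp5e, the epsilon subunit, had a difference of 0.22 in AG-haESC (adjusted p = 0.176) and rose by 0.51 in E14 (adjusted p = 0.00948), a call lost without MEF replicate 2 (adjusted p = 0.0685). Atp5d, the delta subunit, had differences of -0.16 (adjusted p = 0.234) and -0.095 (adjusted p = 0.512), and after quantile normalization it passed the test as lower in AG-haESC (-0.37, adjusted p = 0.0102). Atp5k, the e subunit of the membrane part and 1 of the 4 members with the exact motif of nuclear respiratory factor 1, rose by 0.73 ± 0.09 (adjusted p = 3.92e-05) and 0.54 ± 0.10 (adjusted p = 0.000738). Of the others with this motif, Atp5g2 rose in both comparisons, Uqcrc1 rose in AG-haESC alone and Cox6a1 passed the test in neither.

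**Figure D3:**
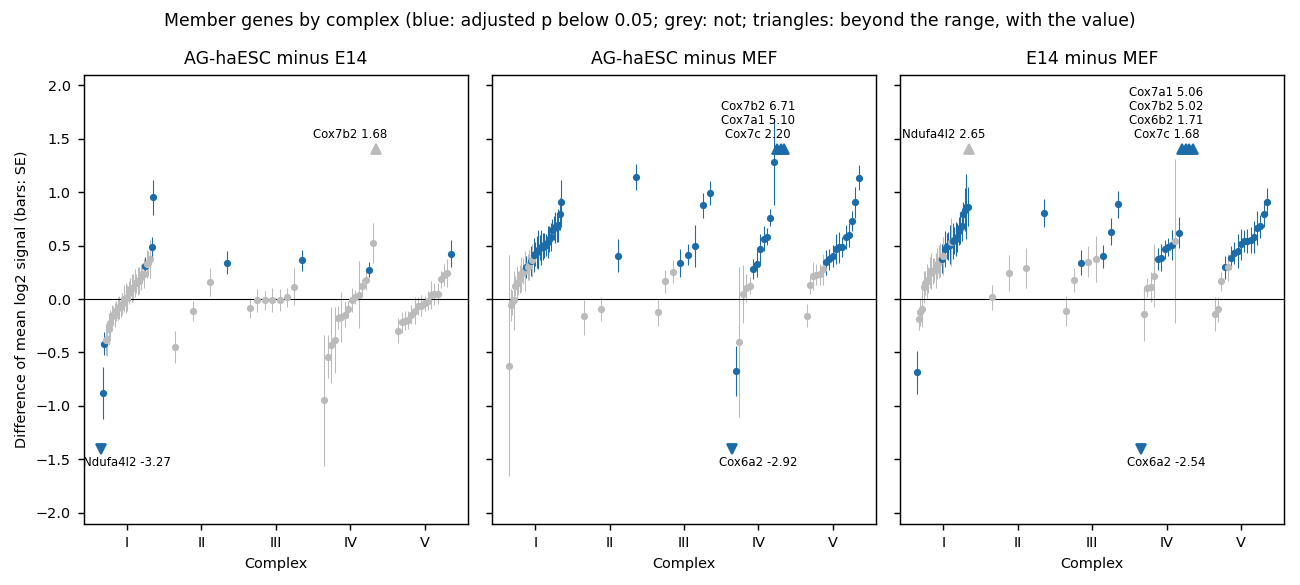
Difference of mean log2 signal (vertical axis) of each measured gene by complex, for the 3 comparisons, with bars of 1 SE. Blue points passed the test and grey points did not, and triangles stand for values beyond the range, which are printed beside them. Against MEF most points lie above 0 in every complex but complex II in AG-haESC, while the points of AG-haESC against E14 lie on both sides of 0.

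Complex IV, cytochrome c oxidase, held the members with the largest differences from MEF, and these were mostly restricted isoforms. Of its 16 genes measured, 10 rose and 2 fell in AG-haESC, and 10 rose and 1 fell in E14. Cox7a1 (probe set 1418709_at, chromosome 7), the isoform of heart and skeletal muscle, had signals of 10.55, 10.07, 9.83, 10.30 and 10.65 in AG-haESC, 10.75, 10.59 and 9.38 in E14, and 4.88 and 5.47 in MEF. Both MEF signals lay below the array median, so the fold is a lower bound, with MEF put at its array medians: Cox7a1 was at least 19.7-fold higher in AG-haESC (adjusted p = 4.01e-07) and at least 19.1-fold higher in E14 (adjusted p = 1.06e-06), or at least 25.8-fold without E14 replicate 3. AG-haESC and E14 overlapped, with a difference of 0.040 ± 0.31. Its widely expressed counterpart Cox7a2 had signals of 14.53, 14.55, 14.51, 14.69 and 14.50 in AG-haESC, 14.44, 14.43 and 14.44 in E14, and 14 and 13.94 in MEF. The groups did not overlap, and Cox7a2 rose by 0.58 ± 0.08 in AG-haESC (adjusted p = 6.13e-05) and by 0.46 ± 0.09 in E14 (adjusted p = 0.000713).

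Cox7b2 (1429687_at, chromosome 5), a paralogue of Cox7b known from testis, had signals of 9.28, 8.60, 9.64, 10.33 and 8.84 in AG-haESC, 8.22, 8.30 and 6.45 in E14, and 4.09 and 1.18 in MEF. It was at least 10.2-fold higher in AG-haESC (adjusted p = 1.34e-05) and at least 3.19-fold higher in E14 (adjusted p = 0.000269) than in MEF, or at least 4.85-fold in E14 without E14 replicate 3. All AG-haESC arrays lay above all E14 arrays, and that difference of 1.68 ± 0.65 did not pass the test (adjusted p = 0.102). Without E14 replicate 3, which lay well below the other E14 arrays, it was 1.08 (adjusted p = 0.261). It passed with a pseudocount of 32 (1.51, adjusted p = 0.0263), with signals floored at the array median (adjusted p = 0.0305), in the fit of those groups alone (adjusted p = 0.0434) and without either MEF array (adjusted p = 0.0454 and 0.0443).

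Cox6b2 (1435275_at, chromosome 7), the testis isoform of subunit VIb, had signals of 10.98, 10.81, 10.58, 9.76 and 11.61 in AG-haESC, 11.49, 11.52 and 10.51 in E14, and 9.60 and 9.33 in MEF. AG-haESC replicate 4 was the lowest of the embryonic stem cell arrays, and still above both MEF arrays. The gene rose by 1.28 ± 0.41 in AG-haESC (adjusted p = 0.0171) and by 1.71 ± 0.44 in E14 (adjusted p = 0.00639). The first call was lost without MEF replicate 1 or 2 (adjusted p = 0.0587 and 0.115) and the second without MEF replicate 2 (adjusted p = 0.0505). Its counterpart Cox6b1 had 14.13, 14.04, 14.08, 14.19 and 14.07 in AG-haESC, 14.12, 14.12 and 14.01 in E14, and 13.96 and 14 in MEF. It did not pass the test, with differences of 0.13 ± 0.08 and 0.11 ± 0.09, and passed in both comparisons with the arrays centred on the median of the genes tested (0.40, adjusted p = 0.00685, and 0.35, adjusted p = 0.0238). After quantile normalization its differences were negative, at -0.13 and -0.16 (adjusted p = 0.14 and 0.0821).

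Cox7c (1459885_s_at, chromosome 13), a small subunit encoded in the nucleus, had signals of 9.27, 9.68, 9.63, 10.04 and 9.87 in AG-haESC, 9.28, 9.30 and 8.94 in E14, and 7.50 and 7.48 in MEF. Both MEF arrays lay well below the rest, and Cox7c rose by 2.20 ± 0.21 in AG-haESC (adjusted p = 5.24e-06) and by 1.68 ± 0.23 in E14 (adjusted p = 9.48e-05). The second probe set of Cox7c gave 1.47 ± 0.28 and 1.52 ± 0.31.

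Cox6a2 (1417607_at, chromosome 7), the heart and skeletal muscle isoform of subunit VIa, was the exception. It had signals of 6.72, 6.20, 6.24, 5.56 and 6.00 in AG-haESC, 6.47, 6.94 and 6.16 in E14, and 9.32 and 8.81 in MEF. MEF lay above every other array, and Cox6a2 fell by 2.92 ± 0.35 in AG-haESC (adjusted p = 2.62e-05) and by 2.54 ± 0.38 in E14 (adjusted p = 0.000168). It was the 1 member that fell against MEF in every fit that left out 1 array, in both comparisons. Its counterpart Cox6a1 had signals of 14.41, 14.59, 14.33, 14.83 and 14.35 in AG-haESC, 14.56, 14.52 and 14.45 in E14, and 14.50 and 14.29 in MEF. These overlapped, and Cox6a1 had differences of 0.11 ± 0.13 and 0.11 ± 0.14 and did not pass the test. Among 10 muscle markers measured, 6 fell and 1 rose in AG-haESC against MEF, and likewise in E14. Their summed signal was 6648 to 11430 in AG-haESC, 4042 to 4735 in E14 and 6319 to 6494 in MEF, and Myod1, Myog and Tnnt3 lay below the array median in every embryonic stem cell array but not in every MEF array. The part of muscle cells in the Cox6a2 result was not tested.

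Cox7a2l (1432264_x_at, chromosome 17), which links complexes III and IV in supercomplexes, also fell in AG-haESC against MEF. Its signals were 12.33, 12.18, 12.21, 12.30 and 12.20 in AG-haESC, 13.16, 13.10 and 12.09 in E14, and 13.00 and 12.84 in MEF. All AG-haESC arrays lay below both MEF arrays, by 0.67 ± 0.23 (adjusted p = 0.0251), and E14 replicate 3 lay with AG-haESC rather than with the other E14 arrays. The call was lost without MEF replicate 1 or 2 (adjusted p = 0.151 and 0.0743), with the mean of its probe sets (-0.48, adjusted p = 0.0592), without the trend (adjusted p = 0.0532) and with centred arrays (-0.40, adjusted p = 0.109).

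The remaining isoforms did not pass the test against MEF. Cox4i2, the lung isoform of subunit IV, had signals of 3.36, 5.16, 5.78, 4.63 and 6.33 in AG-haESC, 5.48, 6.34 and 6.18 in E14, and 5.82 and 5.09 in MEF, below the array median in 7 of the 10 arrays. Cox8c, a testis isoform of subunit VIII, had 7.78, 8.01, 8.02, 8.21 and 7.83 in AG-haESC, 8.23, 8.58 and 7.62 in E14, and 8.13 and 7.72 in MEF, which overlapped in all groups. Their widely expressed counterparts stood lowest in MEF. Cox4i1 had 14.25, 14.23, 14.08, 14.32 and 14.22 in AG-haESC, 14.39, 14.30 and 14.25 in E14, and 14.04 and 13.84 in MEF. Cox8a had 13.31, 13.24, 13.33, 13.54 and 13.49 in AG-haESC, 13.74, 13.59 and 13.25 in E14, and 12.90 and 12.92 in MEF. Both rose in both comparisons, Cox4i1 by 0.28 ± 0.09 (adjusted p = 0.0207) and 0.37 ± 0.10 (adjusted p = 0.0077) and Cox8a by 0.47 ± 0.13 (adjusted p = 0.00936) and 0.62 ± 0.15 (adjusted p = 0.00344). Quantile normalization ended both calls of Cox4i1 (0.051 and 0.13, adjusted p = 0.584 and 0.203) and the call of Cox8a in AG-haESC (0.29, adjusted p = 0.0677). Leaving out MEF replicate 2 also ended the calls of Cox4i1 (adjusted p = 0.251 and 0.104), as did the fit without the trend (adjusted p = 0.096 and 0.0508), and leaving out MEF replicate 1 or 2 that of Cox8a in AG-haESC (adjusted p = 0.064 and 0.0533).

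**Figure D4:**
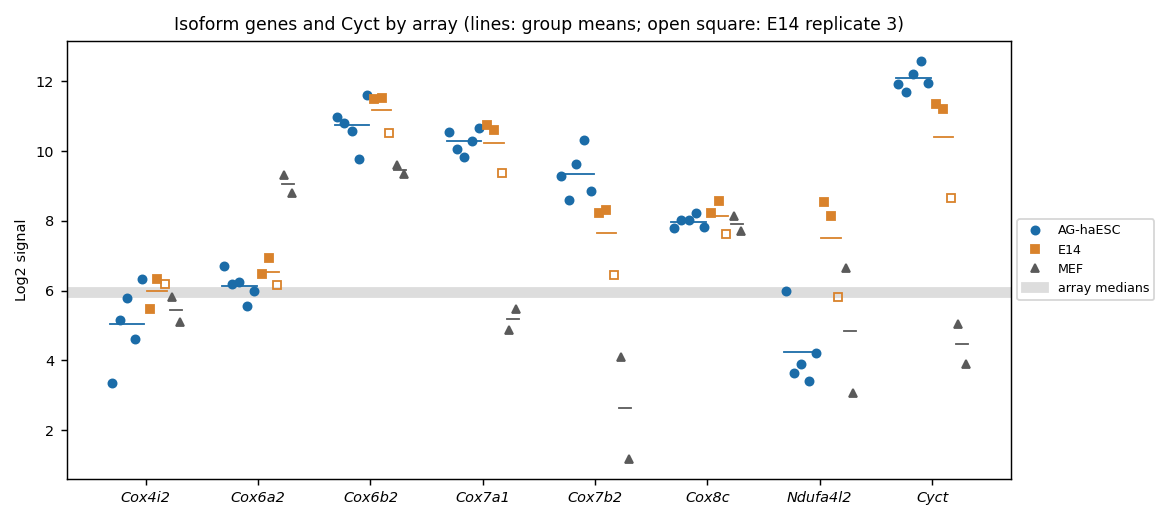
Log2 signal (vertical axis) of 7 isoform genes and of the testis cytochrome c gene Cyct in each array, with group means as lines and the range of the array medians as a grey band. Cox7a1, Cox7b2 and Cyct lie below the band in both MEF arrays and above it in all embryonic stem cell arrays, while Cox6a2 is highest in MEF. The open square is E14 replicate 3.

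Between AG-haESC and E14 the members as a whole did not move in 1 direction. Of the 80 genes, 7 rose and 3 fell in AG-haESC, while 8.08% of all genes rose and 7.77% fell, so the share that rose was close to that of all genes. The difference was positive for 39 members and negative for 41, with a median of -0.0078 against -0.082 over all genes, and it was within 2-fold for 78. No member rose by 2-fold and 1 fell (4.58% and 3.74% of all genes). The arrays did not overlap for 13 higher members and 1 lower (9.87% and 12.8% of all genes). The standard errors of the members were 0.068 to 0.90, with a median of 0.11, so differences of this size could be missed in single genes. Fibroblast markers differed too, with 6 of 13 higher in AG-haESC than in E14 and 0 lower, and their part in these differences was not tested.

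E14 replicate 3 weighed heavily on the lower calls, among the members and among all genes. Without it, 4 members rose (5%, against 9.29% of all genes) and 12 fell (15%, against 12.3% of all genes). With it, 3.75% of the members and 7.77% of all genes fell. The share of members that fell without it was thus close to that of all genes. The difference was then positive for 28 and negative for 52, with a median of -0.10 against -0.12 over all genes. The 12 that fell then included all 3 of the fit with it, with Cox7a2l at -0.89 ± 0.09 (adjusted p = 0.00013), Ndufa6 at -0.59 ± 0.13 (adjusted p = 0.00837), Ndufa7 at -0.54 ± 0.13 (adjusted p = 0.0141) and Sdhc at -0.54 ± 0.16 (adjusted p = 0.0336). The others were Ndufs4, Atp5e, Ndufs8, Cox5b and Atp5g2, at -0.48 to -0.27. The 4 that rose without it were Ndufs5, Ndufa1, Ndufa2 and Cox5a.

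Ndufs5 (1416494_at, chromosome 4), an accessory subunit of complex I on the side of the intermembrane space, showed the largest rise. Its signals were 12.78, 12.63, 12.65, 12.80 and 12.96 in AG-haESC, 12.03, 12.08 and 11.33 in E14, and 12.43 and 12.56 in MEF. E14 lay below both other groups in every array. Ndufs5 rose by 0.95 ± 0.16 in AG-haESC against E14 (adjusted p = 0.00272), and by 0.71 ± 0.11 without E14 replicate 3 (adjusted p = 0.00135). It fell by 0.69 ± 0.20 in E14 against MEF (adjusted p = 0.0125), or by 0.44 without E14 replicate 3 (adjusted p = 0.0119), a call lost without MEF replicate 2 (-0.62, adjusted p = 0.0845) and in the fit of those groups alone (adjusted p = 0.057). A further probe set reads Ndufs5 together with a pseudogene copy and was left out by the rule.

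Ndufa1 (X chromosome), a small accessory subunit needed to assemble complex I, had signals of 14.32, 14.17, 14.34, 14.58 and 14.23 in AG-haESC, 13.89, 13.92 and 13.71 in E14, and 13.71 and 13.62 in MEF. All AG-haESC arrays lay above all others, and the gene rose by 0.48 ± 0.10 against E14 (adjusted p = 0.00745) and by 0.66 ± 0.11 against MEF (adjusted p = 0.000371). Ndufb11, the other X-linked member, had 13.61, 13.66, 13.87 and 13.59 in AG-haESC replicates 1, 3, 4 and 5 and a slightly lower signal in replicate 2, with 13.48, 13.42 and 13.04 in E14, and 13.09 and 13.04 in MEF, also without overlap between AG-haESC and E14, and its difference from E14 of 0.33 ± 0.12 did not pass the test (adjusted p = 0.0725) and was 0.20 without E14 replicate 3 (adjusted p = 0.189). Against MEF, Ndufb11 rose in AG-haESC by 0.58 (adjusted p = 0.00263), with 0.25 in E14 (adjusted p = 0.163), or 0.38 without E14 replicate 3 (adjusted p = 0.0189). Over all 465 X-linked genes tested, 203 rose and 5 fell in AG-haESC against E14, with a median difference of 0.69. Ndufs5 and Ndufa1 were the members that rose in every fit that left out 1 array.

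The other members that rose did so by less, and their calls depended on single arrays. Cox5a, a subunit of complex IV that is present in all tissues, had signals of 14.86, 14.90, 14.77, 14.92 and 14.79 in AG-haESC, 14.68, 14.53 and 14.52 in E14, and 14.06 and 14.11 in MEF. The 3 groups did not overlap, and Cox5a rose by 0.27 ± 0.07 against E14 (adjusted p = 0.0224), which no longer passed when AG-haESC replicate 2 (adjusted p = 0.0512) or E14 replicate 2 (adjusted p = 0.0881) was left out. Ndufa2, an accessory subunit of complex I, rose by 0.31 ± 0.08 (adjusted p = 0.0259), which no longer passed when AG-haESC replicate 1 (adjusted p = 0.0558), AG-haESC replicate 3 (adjusted p = 0.0502) or E14 replicate 2 (adjusted p = 0.12) was left out. Uqcr10 rose by 0.36 ± 0.10 (adjusted p = 0.0293) through its brightest probe set, while the mean of its probe sets gave 0.016 (adjusted p = 0.959). Leaving out replicate 1 or 3 of AG-haESC (adjusted p = 0.0605 and 0.0579) or of E14 (adjusted p = 0.111 and 0.058) ended its call as well.

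Atp5md, a small membrane subunit of complex V, had signals of 13.61, 13.45, 13.35, 13.35 and 13.67 in AG-haESC, 13.22, 13.18 and 12.80 in E14, and 13.05 and 13.36 in MEF. It rose by 0.42 ± 0.13 against E14 (adjusted p = 0.0425), and without E14 replicate 3 the difference was 0.29 (adjusted p = 0.106). Leaving out AG-haESC replicate 1, 2, 3 or 5, or E14 replicate 1 or 2, ended its call too. Sdhd rose by 0.34 ± 0.11 against E14 (adjusted p = 0.0496), a call lost in every fit that left out 1 array, with adjusted p from 0.0514 to 0.109.

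Ndufa4l2 (chromosome 10), a paralogue of Ndufa4 that is known to be induced by hypoxia, had signals of 6.00, 3.65, 3.91, 3.40 and 4.21 in AG-haESC, 8.55, 8.15 and 5.81 in E14, and 6.65 and 3.06 in MEF. AG-haESC replicate 1 lay above its array median and above E14 replicate 3, so the groups overlapped, and the MEF arrays disagreed with each other. The other 4 AG-haESC arrays lay below their medians, where a signal has no reliable size, so the size of the difference is not reliable either. The difference of -3.27 ± 0.90 from E14 passed the test (adjusted p = 0.0309), and without E14 replicate 1 or 2 it did not (adjusted p = 0.129 and 0.116). Leaving out AG-haESC replicate 2, 3, 4 or 5 also ended the call (adjusted p from 0.0551 to 0.0626), and without E14 replicate 3 the difference was -4.11 ± 0.92 (adjusted p = 0.0102). With signals floored at the array median it was -1.60 (adjusted p = 0.0296). The difference of E14 from MEF was 2.65 (adjusted p = 0.0629), or 3.49 without E14 replicate 3 (adjusted p = 0.0177). Ndufa4 itself had signals of 13.71, 13.57, 13.73, 13.91 and 13.77 in AG-haESC, 13.95, 13.94 and 13.56 in E14, and 13.44 and 13.44 in MEF, and rose in E14 against MEF by 0.38 ± 0.13 (adjusted p = 0.0307), a call lost after quantile normalization (0.17, adjusted p = 0.249) and without any 1 of E14 replicates 1 and 2 and the MEF arrays (adjusted p from 0.0933 to 0.113). In AG-haESC against MEF the difference of Ndufa4 was 0.30 ± 0.12 (limma, adjusted p = 0.0536). It passed without E14 replicate 3 (adjusted p = 0.0164).

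Ndufv3, an accessory subunit of the part of complex I that binds NADH, had signals of 12.44, 12.30, 12.12, 12.98 and 12.80 in AG-haESC, 13.73, 13.74 and 12.74 in E14, and 12.57 and 12.51 in MEF. E14 replicates 1 and 2 were about 1 unit above replicate 3 and above MEF. Ndufv3 fell by 0.88 ± 0.24 in AG-haESC against E14 (adjusted p = 0.0323), and by 1.21 ± 0.20 without E14 replicate 3 (adjusted p = 0.00197). Ndufv3 no longer passed when any 1 of AG-haESC replicates 1 to 3 (adjusted p from 0.0653 to 0.0682) or of E14 replicates 1 and 2 (adjusted p = 0.131 and 0.135) was left out.

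Ndufs1, the largest core subunit of complex I and a carrier of iron-sulfur clusters, had signals of 11.74, 11.58, 11.74, 11.56 and 11.40 in AG-haESC, 12.06, 12.09 and 11.92 in E14, and 11.34 and 11.34 in MEF. All E14 arrays lay above all others, and Ndufs1 fell by 0.42 ± 0.11 in AG-haESC against E14 (adjusted p = 0.0235) and rose by 0.68 ± 0.14 in E14 against MEF (adjusted p = 0.00118). The first of these no longer passed when AG-haESC replicate 2 (adjusted p = 0.0503) or either of E14 replicates 1 and 2 (adjusted p = 0.0871 and 0.0935) was left out. None of the 3 lower members kept its call in every fit that left out 1 array.

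**Figure D5:**
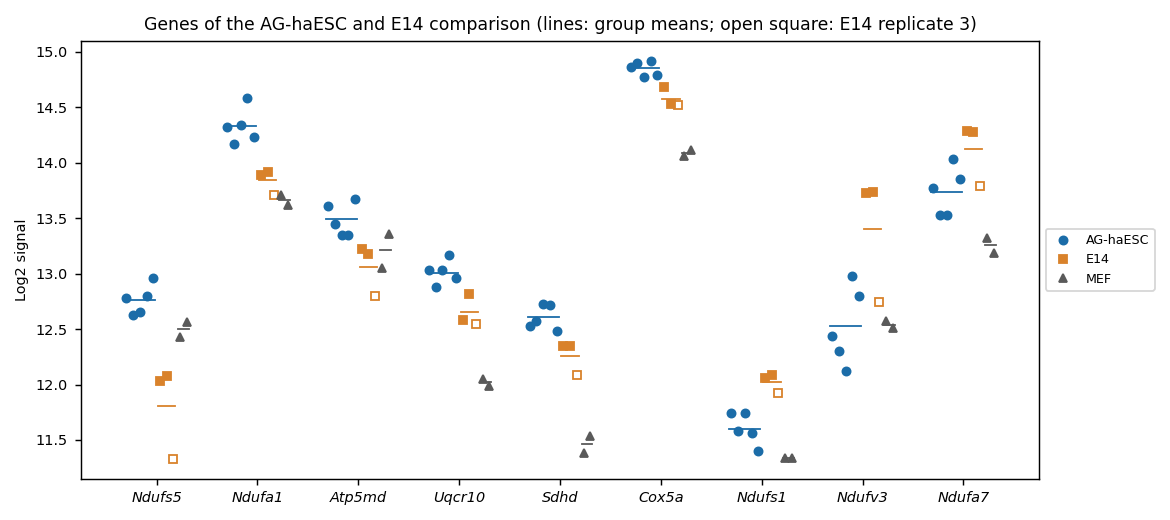
Log2 signal (vertical axis) of 9 members in each array, with group means as lines. Ndufs5 is lowest in E14 and Ndufa1 is highest in AG-haESC, without overlap, while Ndufv3 and Ndufa7 show the distance of E14 replicate 3 (open square) from the other E14 arrays.

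Within groups the members had a lower median SD than all genes tested, but they were also brighter. Their median log2 signal was 13.06, against 8.70 over all genes. Genes of like signal were not compared, so the part of brightness in the lower SD was not tested. The median SD of the members over the arrays was 0.14 in AG-haESC, 0.20 in E14 and 0.055 in MEF, against 0.29, 0.33 and 0.13 over all genes. Between E14 replicates 1 and 2 alone it was 0.046, against 0.12. Much of the spread was shared by the members: E14 replicate 3 was the lowest E14 array for 71 of the 80 members, against 50.1% of all genes. Its median member lay at -0.30 from the mean of the other E14 arrays. AG-haESC replicate 4, at passage 12, was the highest line for 52 members, against 24.2% of all genes, with a median member at 0.19 from the mean of the other lines. AG-haESC replicate 2 was the lowest line for 37 members, against 16.6% of all genes.

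Probe sets of 1 gene mostly had the same sign against MEF, and less often between AG-haESC and E14. All 158 member probe sets above their array's median in at least 2 arrays were also tested singly: 82 rose and 3 fell in AG-haESC against MEF (27.6% and 25.3% of all probe sets), 80 rose and 5 fell in E14 against MEF (27.4% and 23.3%), and 12 rose and 4 fell in AG-haESC against E14 (6.83% and 5.56%). Of the 47 genes with several such probe sets, 41 had the same sign in all of them in AG-haESC against MEF. In E14 against MEF 37 did, and in AG-haESC against E14 32 did.

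Genes around the respiratory chain were taken from lists. Cytochrome c, the carrier between complexes III and IV, and cytochrome c1 of complex III rose against MEF in both kinds of embryonic stem cell, 3 of 3 genes each. Cyct, the testis form of cytochrome c, had signals of 11.92, 11.70, 12.22, 12.59 and 11.95 in AG-haESC, 11.35, 11.20 and 8.64 in E14, and 5.05 and 3.91 in MEF. MEF lay below its array medians, and Cyct was at least 68.3-fold higher in AG-haESC (adjusted p = 1.13e-06) and at least 21.3-fold higher in E14 (adjusted p = 1.78e-05), or at least 39.2-fold in E14 without E14 replicate 3. All AG-haESC arrays lay above all E14 arrays, with a difference of 1.68 ± 0.53 (adjusted p = 0.0526), and E14 replicate 3 lay far below the other E14 arrays. Without that array the difference was 0.80 (adjusted p = 0.0722), and it passed after quantile normalization (1.62, adjusted p = 0.0496) and with signals floored at the array median (adjusted p = 0.0423). Somatic Cycs rose by 0.68 ± 0.08 (adjusted p = 2.88e-05) and 0.61 ± 0.09 (adjusted p = 0.000155), and Cyc1 by 0.86 ± 0.13 (adjusted p = 0.000138) and 1.10 ± 0.14 (adjusted p = 4.66e-05).

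Of 43 assembly factors measured, 16 rose and 7 fell in AG-haESC against MEF, 14 rose and 3 fell in E14 against MEF, and 3 rose and 6 fell in AG-haESC against E14. Of all genes tested, 30.2% rose and 29.6% fell in the first of these comparisons, 30.4% and 26.9% in the second, and 8.08% and 7.77% in the third. The median difference of the assembly factors was 0.20, 0.39 and -0.087, against 0.0045, 0.080 and -0.082 over all genes. Timmdc1, a complex I assembly factor, fell by 1.82 ± 0.20 in AG-haESC against E14 (adjusted p = 0.000213). Its signals were 8.31, 8.97, 8.20, 8.21 and 8.66 in AG-haESC and 10.38, 10.45 and 10.03 in E14, with no overlap. Acad9, which also assembles complex I, rose by 1.21 ± 0.21 (adjusted p = 0.00286), but the mean of its probe sets gave 0.27 (adjusted p = 0.454). Cox17, a copper chaperone of complex IV, rose by 1.69 ± 0.13 in AG-haESC against MEF (adjusted p = 8.85e-07). Ndufaf6 rose there by 1.43 ± 0.19 (adjusted p = 4.72e-05), and Sco2, which also delivers copper to complex IV, fell by 1.51 ± 0.36 (adjusted p = 0.00363). In E14 against MEF the largest differences were those of Ecsit, at 1.61 ± 0.25 (adjusted p = 0.000202), Nubpl, at 1.29 ± 0.23 (adjusted p = 0.000538), and Ndufaf6, at 1.29 ± 0.20 (adjusted p = 0.000233), all factors of complex I assembly. Coa7, a factor of complex IV assembly, rose in AG-haESC against E14 by 0.78 ± 0.22 (adjusted p = 0.0358), and the mean of its probe sets gave 0.16 (adjusted p = 0.661). It no longer passed either when 1 array was left out from AG-haESC replicates 1 to 3, E14 replicates 1 and 2 or MEF (adjusted p from 0.0527 to 0.149).

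Of 22 genes of mitochondrial transcription, replication and biogenesis, 14 rose and 2 fell in AG-haESC and 12 rose and 1 fell in E14 against MEF, and 1 rose and 3 fell in AG-haESC against E14. The share of all genes that rose was 30.2%, 30.4% and 8.08% in these comparisons, and 29.6%, 26.9% and 7.77% fell. Tfam, which packages and transcribes mitochondrial DNA, rose by 1.27 ± 0.12 in AG-haESC (adjusted p = 5.35e-06) and by 1.36 ± 0.14 in E14 (adjusted p = 7.72e-06). Nrf1, nuclear respiratory factor 1, rose by 2.49 ± 0.16 (adjusted p = 2.34e-07) and 2.57 ± 0.18 (adjusted p = 4.45e-07) through its brightest probe set, while the mean of its probe sets gave 0.59 and 0.81 (adjusted p = 0.136 and 0.0682). Gabpb1, a subunit of the GABP factor, rose by 1.45 ± 0.25 (adjusted p = 0.000396) and 1.85 ± 0.27 (adjusted p = 0.000144). The 3 that fell in AG-haESC against E14 were Polg, the mitochondrial DNA polymerase, by 0.92 ± 0.16 (adjusted p = 0.00281), Top1mt, the mitochondrial topoisomerase, by 0.91 ± 0.23 (adjusted p = 0.0198), and Polrmt, the mitochondrial RNA polymerase, by 0.65 ± 0.13 (adjusted p = 0.00769). The call of Top1mt was lost without E14 replicate 1 or 2 (adjusted p = 0.0874 and 0.0924). ND5, a complex I subunit encoded in mitochondrial DNA, had signals of 13.69 to 14.18 over the 10 arrays, and no difference passed the test, with -0.034 ± 0.12 for AG-haESC against E14, -0.13 ± 0.14 for AG-haESC against MEF and -0.092 ± 0.15 for E14 against MEF. After quantile normalization ND5 passed as lower in AG-haESC than in MEF (-0.38, adjusted p = 0.0284).

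Of 19 genes of the tricarboxylic acid cycle and pyruvate entry, 9 rose and 1 fell in AG-haESC and 7 rose and 2 fell in E14 against MEF, and 5 rose and 1 fell in AG-haESC against E14. Over all genes these shares were 30.2% and 29.6%, 30.4% and 26.9%, and 8.08% and 7.77%. Pdha1, the X-linked alpha subunit of pyruvate dehydrogenase, rose by 1.06 ± 0.12 in AG-haESC against E14 (adjusted p = 0.000205), with 13.16 to 13.44 in AG-haESC and 12.01 to 12.48 in E14. Mpc1, a subunit of the mitochondrial pyruvate carrier, rose by 0.83 ± 0.12 (adjusted p = 0.00128). Idh3g, an X-linked subunit of the NAD-dependent isocitrate dehydrogenase, rose by 0.71 ± 0.12 in AG-haESC against E14 (adjusted p = 0.00238) and by 1.47 ± 0.14 against MEF (adjusted p = 3.35e-06). Pdhb, the beta subunit of pyruvate dehydrogenase, rose by 1.42 ± 0.15 in AG-haESC (adjusted p = 8.44e-06) and by 1.02 ± 0.16 in E14 (adjusted p = 0.000237) against MEF. Suclg2, a subunit of succinyl-CoA ligase, rose by 1.05 ± 0.25 (adjusted p = 0.00318) and 1.38 ± 0.27 (adjusted p = 0.00106). Idh2, the NADP-dependent mitochondrial isocitrate dehydrogenase, rose by 0.90 ± 0.25 (adjusted p = 0.0338) in AG-haESC against E14, and the mean of its probe sets gave 0.55 (adjusted p = 0.0709). Without E14 replicate 3 the difference of Idh2 was 0.49 (adjusted p = 0.0344), and its call ended when AG-haESC replicate 1 or 5 was left out (adjusted p = 0.0724 and 0.0693).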

How the data were processed

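The deposited values are MAS5 signal intensity per probe set, per the submitters' processing notes, on a linear scale with no detection calls. In the deposited table every array has the same 2% trimmed mean of 500, so the authors had scaled the arrays to each other. The software version was not stated in the notes used. Array medians were 55.9 to 68.0.

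Intensities were turned into log2. A probe set was kept when above its own array's median in at least 2 arrays, and a gene was read by its brightest kept probe set with 1 gene symbol. A model of 3 group means over all 10 arrays was fitted to 13251 genes (limma 3.58.1 in R 4.3.3, eBayes with trend, two-sided) with Benjamini-Hochberg adjustment over all of them, and a gene was called below an adjusted p of 0.05. The fit was tested on simulated data. Where all arrays of the dimmer group lay below their medians, the fold was computed with that group at its array medians and is given as "at least". Replicates of E14 are arrays of 1 line, and p-values measure the spread between these samples.

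The members, the gene lists and the rules were chosen with earlier results of these data known. Values by array are given for the 8 called genes with the largest difference in each comparison, the brightest gene of each complex, the X-linked members and the restricted isoforms with their counterparts. Of each list, the 3 called genes with the largest difference per comparison are named. Members outside this rule are named by their role. Probe sets with several gene symbols were left out, 10 of which include a member's symbol. Alternatives were a pseudocount of 32, a floor at the array median, quantile normalization, no filter, a stricter filter, the mean of a gene's probe sets, no trend, array weights, a fit of 2 groups, each array left out, and a replicate block.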

Additional observations from a re-analysis of the deposited data

Results flagged for a closer look

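In the 5 AG-haESC arrays, 7 of the 80 members had 1 array far from the other 4, with a gap of more than 0.71 of the group's range. For independent values chance gives this in about 1 in 20 groups, but the members shared shifts of whole arrays. The share of all genes flagged in this way was not computed, so the count cannot be set against either. AG-haESC replicate 4 was the high array for 6 of them, all with log2 signals: Atp5a1 at 14.09 (others 13.71 to 13.81), Atp5j at 13.75 (at most 13.54), Cox7a2 at 14.69 (14.50 to 14.55), Ndufa12 at 13.55 (13.21 to 13.25), Ndufb7 at 13.11 (12.89 to 12.94) and Ndufs3 at 12.59 (12.39 to 12.44). AG-haESC replicate 2 was the low array for Uqcrq, at 12.66 (12.86 to 12.92).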

How the results depend on the processing

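With the main settings 7 members were higher and 3 lower in AG-haESC than in E14, 49 and 2 in AG-haESC against MEF, and 44 and 2 in E14 against MEF. For AG-haESC against E14, 4 were higher without the filter, 2 without the trend and 4 with arrays centred on the median of the genes tested, a setting chosen after seeing the data. None was lower without the trend in limma (5 at an unadjusted p below 0.05), and 22 were lower with array weights, where 20.9% of all genes were. With those weights the share of higher genes among all called genes went from 51% to 40.2%. Against MEF, 31 were higher in AG-haESC after quantile normalization. The lower members there were 5 after quantile normalization and 1 with the mean of probe sets, without the trend and with centred arrays. In E14 against MEF 4 were lower with the mean of probe sets and 1 in the fit of those groups alone. Leaving out 1 array gave 3 to 7 higher and 0 to 12 lower for AG-haESC against E14, 29 to 55 and 1 to 2 for AG-haESC against MEF, and 29 to 56 and 1 to 2 for E14 against MEF. The count of 0 came with replicate 2 of AG-haESC or either of E14 replicates 1 and 2 left out (limma, 5, 4 and 4 at an unadjusted p below 0.05), and the count of 12 without E14 replicate 3.

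Over all members, pathway genes and ND5, 5674 values under other settings kept direction and side of the threshold, 305 lost a call and 197 gained one. The sign turned for 162, of which 7 passed the test in at least one of the fits compared. All 7 came with the mean of a gene's probe sets. Ndufa10 went from 0.30 to -0.10 in AG-haESC against MEF and from 0.15 to -1.34 in E14 against MEF, and Ndufb8 from 0.79 to -0.21 and from 0.47 to -1.32. Uqcrq went from -0.11 to 0.84 in E14 against MEF. Idh2 went from -0.04 to 0.77 in AG-haESC against MEF and from -0.94 to 0.21 in E14 against MEF. The cause was not tested.

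The other 155 passed in neither fit, and those of differences given above were as follows. Quantile normalization gave Cox6a1 -0.11 and -0.12 and Cox6b1 -0.13 and -0.16 in AG-haESC and E14 against MEF, and Sdhb -0.15 in E14 against MEF. Centred arrays gave Atp5d 0.12 and 0.15 and ND5 0.15 and 0.15 in AG-haESC and E14 against MEF, and Sdhb 0.18 and Sdhc 0.11 in AG-haESC against MEF. Array weights gave Cox7a1 -0.37 and Ndufa12 -0.12 in AG-haESC against E14, and ND5 0.044 in E14 against MEF. The replicate block gave ND5 0.058 there. Leaving out 1 array gave -0.39 to 0.29 for Cox7a1, -0.030 to 0.28 for Ndufa12 and -0.18 to 0.049 for ND5 in AG-haESC against E14, -0.0031 to 0.22 for Cox6a1 in AG-haESC against MEF, and -0.041 to 0.12 for Sdhb and -0.19 to 0.058 for ND5 in E14 against MEF.

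A replicate block for E14 against MEF gave 55 higher and 2 lower members, of which 43 and 2 were shared with the fit without it. That fit also leaves out E14 replicate 3, which has no MEF partner, and leaving out that array alone gave 56 and 2. Same-numbered arrays did not deviate together (correlation -0.026 over genes, 2 shared numbers). That correlation compares only replicate 1 with replicate 2 in each group, so it cannot show whether same-numbered arrays were processed together. The 10 arrays, with 2 of MEF, limit the precision, and without detection calls a signal below the array median has no reliable size.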

Other observations

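Probe sets of Ndufa12, an accessory subunit of complex I, disagreed between AG-haESC and E14. The brightest, 1433513_x_at, gave a difference of 0.10 ± 0.14 (limma, adjusted p = 0.672), 1455806_x_at gave 0.88 ± 0.11 (adjusted p = 0.000386) and 1418814_s_at gave -0.33 ± 0.15 (adjusted p = 0.18). For Ndufb8 the bright probe set 1448198_a_at was higher in E14 than in MEF by 0.47, while the dim 1458404_at was lower, at -3.10 (adjusted p = 0.00511). Both genes were picked after their values were seen.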
